A study of Homo sapiens with 2 samples.

Results

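Alpha- and beta-tubulin genes were examined in HCT116 cells, an established human colorectal carcinoma line, with and without a short hairpin RNA against SUN2. The family was taken by gene name as 10 genes, 4 for alpha-tubulin (TUBA1A, TUBA1B, TUBA1C and TUBA4A) and 6 for beta-tubulin (TUBB, TUBB2A, TUBB2B, TUBB3, TUBB4B and TUBB6), out of 18132 genes that had a probe set annotated to 1 gene. The family was chosen by name with the log2 difference of TUBA1A on these arrays in view, so the values below are a description and support no test. Of the 10 genes, 8 had probe sets of their own, 21 in all. TUBA1B was represented by 2 probe sets annotated jointly to TUBA1A and TUBA1B, and TUBB2B by 1 annotated jointly to the decapping exonuclease gene DXO and TUBB2B. These 3 are kept apart.

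The knockdown group was 1 Affymetrix array of cells carrying the hairpin labelled shSUN2-1, and the control group was 1 array of cells carrying a scrambled hairpin. Both came from the same line in the same medium. How the hairpins were delivered, and whether the cells were a clone or a pool, is not stated in the labels. As each group is a single unreplicated array, no value below has a p-value or an SD between cultures, and the number of arrays limits the precision. SUN2 spans the inner nuclear membrane and couples the nucleus to the cytoskeleton. Its brightest probe set read 407 in the knockdown array and 498 in the control array. Its 4 probe sets past the filter were all lower (log2 differences from -0.39 to -0.07). The brightest was at 81.8% of control, a smaller fall than that of the brighter TUBA1A probe set described below (57.9%). With 1 hairpin, loss of SUN2 and other effects of the hairpin cannot be told apart.

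Microtubules are hollow polymers of alpha/beta-tubulin dimers. Vertebrates encode several alpha- and beta-tubulins, called isotypes, that are very similar in sequence and differ mostly near the carboxyl end, where many modifying enzymes act. New tubulin is folded by the chaperonin TRiC and the tubulin cofactors before it can join a dimer. Cells also hold tubulin mRNA in check: when free dimers accumulate, the ribosome-associated factor TTC5 recognises the nascent tubulin chain and, through SCAPER and the CCR4-NOT deadenylase, its mRNA is degraded. In these bulk samples, fewer cells of a type and less RNA per cell cannot be told apart.

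The 250 bases upstream of the annotated start are shown for TUBA1A, the member with the lowest difference, for its neighbour TUBA1B, and for TUBB2A, the member with the highest. The sequences are those of RefSeq on GRCh38.p14, printed 5′ to 3′ on the strand of the gene, and all 3 genes lie on the minus strand. Capitals mark the CCAAT box (CCAAT), the GC box (GGGCGG) and the TATA box (TATAAA), each searched on both strands. The windows are chr12:49189081-49189330 for TUBA1A, chr12:49131396-49131645 for TUBA1B and chr6:3157545-3157794 for TUBB2A.
TUBA1A: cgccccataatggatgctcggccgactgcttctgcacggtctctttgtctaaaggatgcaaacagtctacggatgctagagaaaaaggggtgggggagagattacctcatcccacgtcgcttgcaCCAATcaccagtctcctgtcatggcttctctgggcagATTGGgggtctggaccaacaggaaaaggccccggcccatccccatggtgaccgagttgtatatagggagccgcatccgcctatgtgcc
TUBA1B: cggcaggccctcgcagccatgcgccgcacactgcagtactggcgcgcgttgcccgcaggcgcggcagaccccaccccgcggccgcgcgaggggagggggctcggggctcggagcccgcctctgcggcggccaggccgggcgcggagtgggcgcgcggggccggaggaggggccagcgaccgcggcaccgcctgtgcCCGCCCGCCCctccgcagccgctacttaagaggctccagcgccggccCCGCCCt
TUBB2A: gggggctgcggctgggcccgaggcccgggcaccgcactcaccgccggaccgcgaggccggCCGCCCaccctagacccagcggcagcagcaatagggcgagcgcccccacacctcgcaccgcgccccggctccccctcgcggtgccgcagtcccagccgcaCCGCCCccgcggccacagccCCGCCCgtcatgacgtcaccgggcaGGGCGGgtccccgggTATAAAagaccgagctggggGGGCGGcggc
The TUBA1A window held 2 CCAAT boxes and 0 GC boxes. The TUBA1B window held 3 GC boxes, of which 2 overlap, and 0 CCAAT boxes. The TUBB2A window held 5 GC boxes, 0 CCAAT boxes and the only exact TATAAA match of the family, 30 bases before the start. Other forms of the TATA box were not searched, so a window without a match is not shown to lack one. All 10 genes had a window, 15 in all because some genes have several starts, and 2 of the TUBA1C windows overlap. A CCAAT box lay in 9 of the 15 windows (60%), against 32.0% of 35116 upstream windows of all genes. A GC box also lay in 9 of 15 (60%), against 42.6% of all windows, and an exact TATAAA match in 1 of 15 (6.67%), against 10.7%. A match describes letters in the window and no binding was measured.

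TUBA1A stood apart from every other tubulin gene measured. TUBA1A encodes the alpha-tubulin best known from developing neurons. Its brighter probe set had an intensity of 413 in the knockdown array, against 713 in the control array. Its second probe set had 296 in the knockdown array, against 486 in the control array. Both probe sets were therefore lower in the knockdown, at 57.9% and 60.9% of control. Differences are given as knockdown minus control on the log2(intensity + 16) scale, and were -0.77 (1.70-fold lower) and -0.69. A gene is represented by its brightest probe set. On that scale the pooled within-gene SD between probe sets was 0.09 over 5786 genes. This SD covers probe error and nothing between cultures, so it does not show how far TUBA1A would differ from culture to culture.

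**Figure D1:**
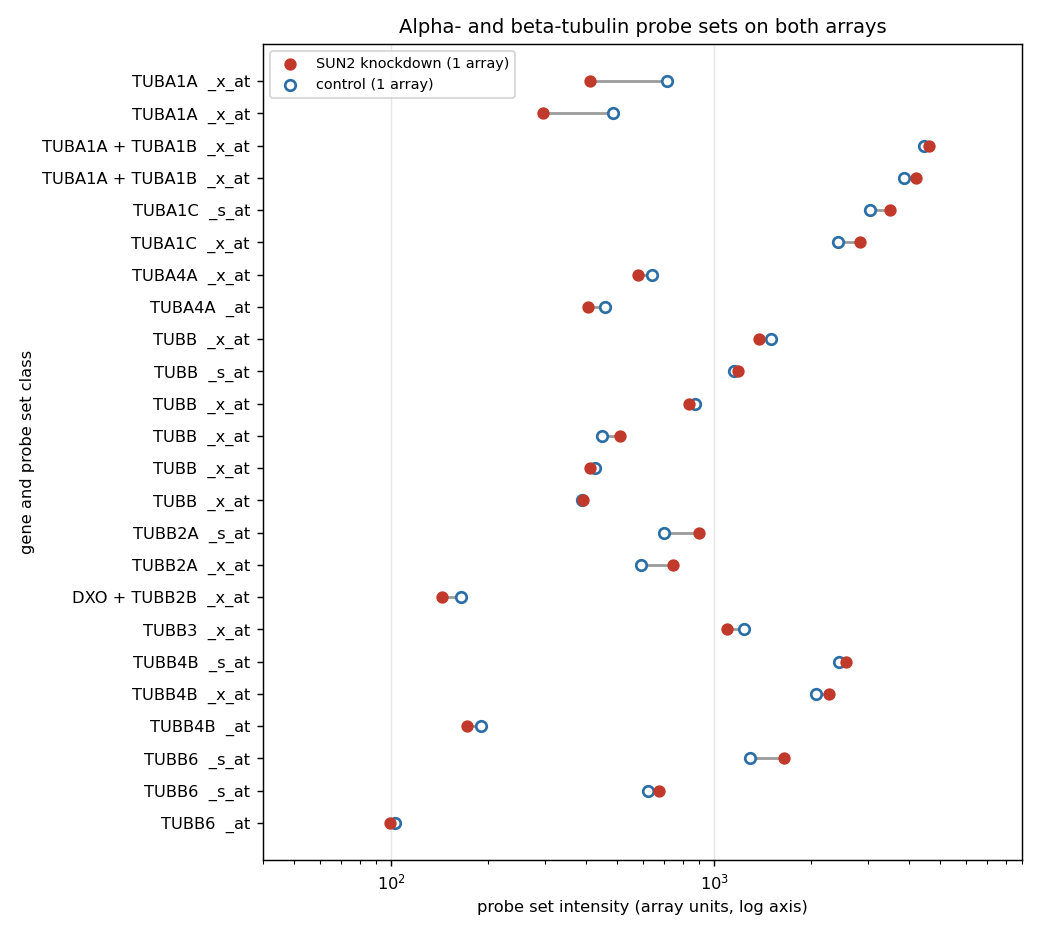
Intensity of each tubulin probe set (log axis, array units) in the SUN2 knockdown array (filled) and the control array (open), 1 row per probe set, with its class. Only the 2 points of a row are comparable, since probes differ in brightness; the 2 TUBA1A rows have the widest gaps to the left, and the TUBB2A and upper TUBB6 rows the widest to the right.

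The lower value was seen on the probe sets annotated to TUBA1A alone, and not on those shared with TUBA1B. TUBA1B is a widely expressed alpha-tubulin. The first shared probe set had an intensity of 4630.1 in the knockdown array and 4473 in the control array, a log2 difference of 0.05. The second had 4222 in the knockdown array and 3874 in the control array, a log2 difference of 0.12. The shared probe sets were thus slightly higher where the TUBA1A ones were lower, and the closest pair lay 0.74 apart on the log2 scale. The first of them changed sign with scaling, to -0.01 after quantile normalization and -0.06 after loess, while the second remained above 0 under both (0.03 and 0.02). How much of the shared signal comes from either transcript is not known from these files.

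TUBA1C, a further widely expressed alpha-tubulin, was higher on both of its probe sets. These had intensities of 3498 and 2833 in the knockdown array, against 3037 and 2414 in the control array, with log2 differences of 0.20 and 0.23. The brightest TUBA1C probe set went to 0.12 after quantile normalization and 0.10 after loess. TUBA1A and TUBA1C lay 0.97 apart on the log2 scale although TUBA1B, TUBA1A and TUBA1C follow each other as protein-coding genes on chromosome 12 in the RefSeq annotation. TUBA4A, whose product ends without the genetically encoded final tyrosine of most alpha-tubulins, was lower on both probe sets. They had 580 and 406 in the knockdown array, against 642 and 458 in the control array (log2 differences -0.14 and -0.17). The brightest TUBA4A probe set went to -0.24 after quantile normalization and -0.23 after loess. Of the 3 alpha-tubulin genes with probe sets of their own, 2 were therefore lower and 1 higher, with differences of unequal size.

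Among the beta-tubulins, TUBB2A and TUBB6 had the highest values. TUBB2A is a class II isotype abundant in neurons, and read 898 and 747 in the knockdown array, against 701 and 594 in the control array. Both TUBB2A probe sets were higher, by 0.35 and 0.32 on the log2 scale. The brightest went to 0.24 after quantile normalization and 0.26 after loess. TUBB6 is a class V isotype known to loosen microtubule arrays when overproduced. Its brightest probe set read 1644 in the knockdown array and 1291 in the control array, a log2 difference of 0.34. That difference went to 0.23 after quantile normalization and 0.24 after loess. The second TUBB6 probe set read 676 in the knockdown array and 624 in the control array (0.11), and the third, which lay below the filter on low values, read 99.4 in the knockdown array and 103 in the control array (-0.04). The TUBB6 increase was thus large on 1 of 3 probe sets, and the mean over all 3 was 0.14.

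TUBB, the class I isotype of most cell types, gave no direction. Its 6 probe sets ran from -0.12 to 0.18 on the log2 scale, 3 higher and 3 lower. The brightest read 1375 in the knockdown array and 1496 in the control array, and the probe set with the highest difference read 510 in the knockdown array and 449 in the control array. The mean over the 6 was 0.0001. The brightest TUBB probe set went to -0.23 after quantile normalization and -0.23 after loess. TUBB4B, a class IV isotype of most tissues and of cilia, read 2556 in the knockdown array and 2434 in the control array on its brightest probe set, a log2 difference of 0.07. Its other probe sets differed by 0.13 and -0.13, and the brightest went to -0.05 after quantile normalization and -0.04 after loess. TUBB4B therefore has no settled direction here.

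TUBB3, the class III isotype used as a marker of neurons and also made by many carcinomas, had 1 probe set. It read 1095 in the knockdown array and 1238 in the control array, a log2 difference of -0.18. That difference went to -0.31 after quantile normalization and -0.28 after loess. The probe set shared by DXO and TUBB2B read 143 in the knockdown array and 164 in the control array (-0.18), and it cannot be assigned to TUBB2B. Of 5 beta-tubulin genes with probe sets of their own, 3 were higher and 2 lower on the brightest probe set, with none past 1.5-fold.

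**Figure D2:**
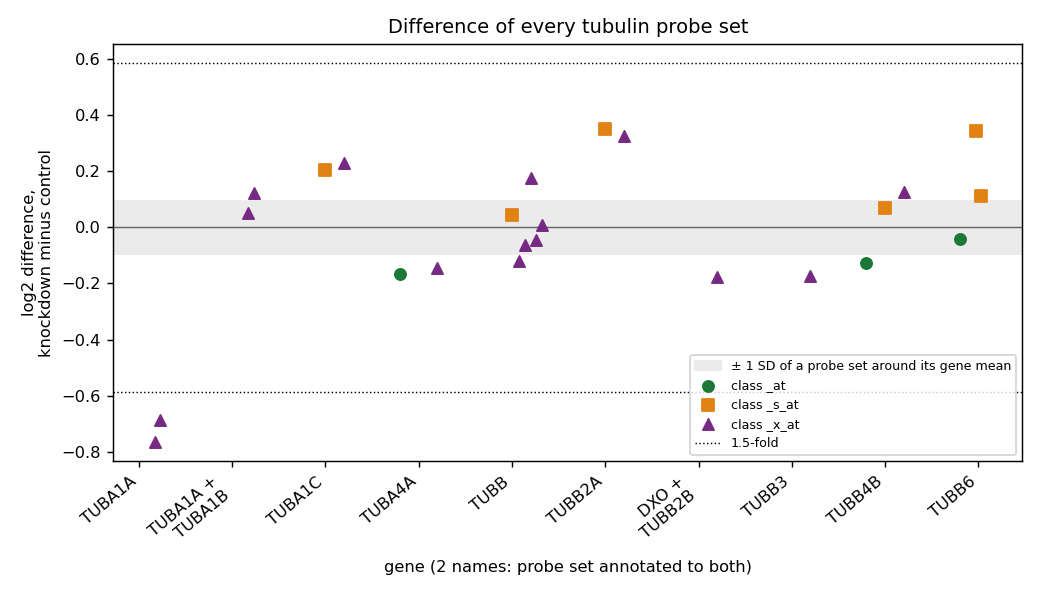
Log2 difference (knockdown minus control) of every tubulin probe set, by gene, with symbol and colour for the probe set class; the grey band is 1 within-gene SD of probe sets either way and dotted lines mark 1.5-fold. The 2 TUBA1A probe sets, at -0.77 and -0.69, are the only ones beyond 1.5-fold, and every _s_at probe set lies above 0.

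Ordered by the brightest probe set, the log2 differences ran from TUBB2A (0.35) and TUBB6 (0.34) through TUBA1C (0.20), TUBB4B (0.07), TUBB (-0.12), TUBA4A (-0.14) and TUBB3 (-0.18) to TUBA1A (-0.77). The SD of a gap between single probe sets was 0.13. Gaps of neighbours in this order were at or under it for TUBB2A with TUBB6, TUBA1C with TUBB4B, TUBB with TUBA4A, and TUBA4A with TUBB3. The gap between TUBB3 and TUBA1A was 0.59, the widest in the order. Of the 7 genes with at least 2 probe sets of their own, 4 (TUBA1A, TUBA1C, TUBA4A and TUBB2A) had every probe set in 1 direction, and TUBB, TUBB4B and TUBB6 did not. The first 4 had 2 probe sets each, whereas TUBB had 6 and TUBB4B and TUBB6 had 3 each. The lower TUBB6 probe set (-0.04) was below the filter. The share of such genes over all genes was not computed, so nothing is read from this count.

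As a family the tubulins were split. All 8 genes with probe sets of their own passed the filter on low values, which kept 12220 genes whose brightest probe set had a mean at or above an intensity of about 108. Of the 8, 4 were higher and 4 lower, where 49.8% of all genes past the filter were higher and 50.2% lower. With quantile normalization, and likewise with loess, 3 differences were positive and 5 negative, since TUBB4B changed sign. The median log2 difference of the 8 was -0.03, against -0.0009 over all genes, whose quartiles were -0.08 and 0.11. It turned to 0.01 with the mean of all probe sets. After quantile normalization it went to -0.14 (all genes -0.03), and after loess to -0.13 (all genes -0.01). The brightest probe sets of all 8 lay in the brightest decile of all probe sets, whose median was 0.10. The values over all genes are therefore not matched to the 8 in intensity. Without TUBA1A the median of the other 7 was 0.07. Of the 20 single-gene tubulin probe sets past the filter, 11 were higher and 9 lower, where 51.1% of all probe sets past the filter were higher and 48.9% lower. The remaining probe set, of TUBB6, was lower.

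One tubulin gene, TUBA1A, was at least 1.5-fold lower, as were 0.0245% of all genes past the filter. As TUBA1A guided the choice of the family, nothing is read from that count. None of the 8 was at least 1.5-fold higher, against 0.336% of all genes. Only MAPRE1, the gene of the EB1 protein that tracks growing microtubule ends (-1.05), and HACD2, an enzyme of very long chain fatty acid elongation (-0.82), had a larger decrease than TUBA1A among the 12220. The genes other than tubulins whose difference lay closest to that of TUBA1A were HACD2, the G protein subunit gene GNG12 (-0.57) and the aldolase gene ALDOC (-0.55), with gaps of 0.05, 0.19 and 0.21 on the log2 scale over the 2 arrays. At the other end, 284 genes were higher than TUBB2A and 295 higher than TUBB6, or 2.32% and 2.41% of the genes.

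**Figure D3:**
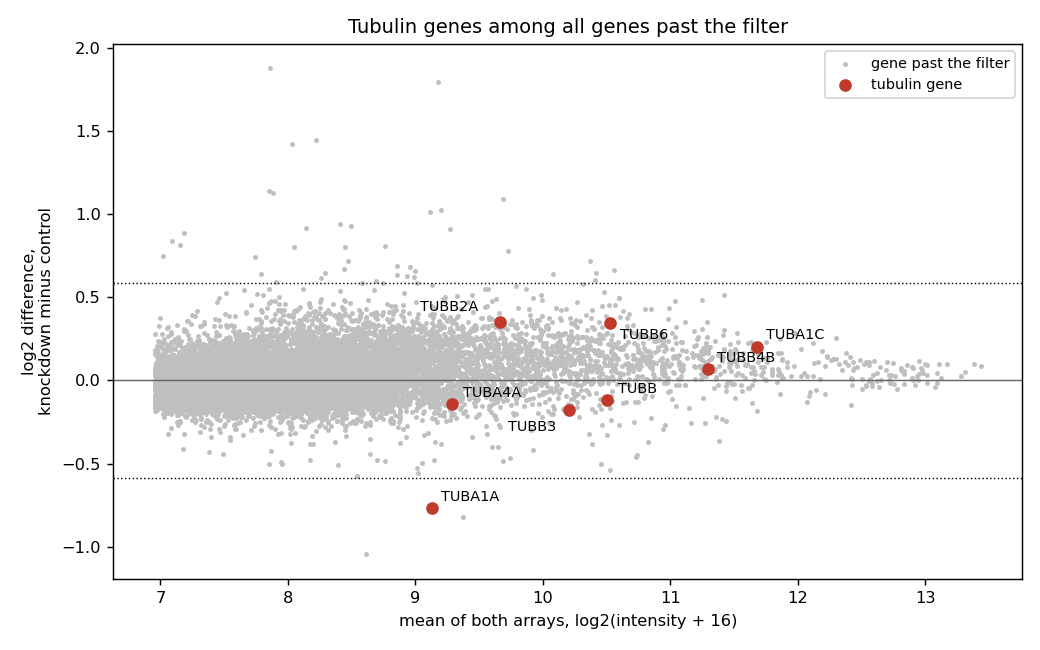
Each of 12220 genes past the filter by its mean log2(intensity + 16) over both arrays (horizontal) and its log2 difference, knockdown minus control (vertical); the 8 tubulin genes with probe sets of their own are red and dotted lines mark 1.5-fold. TUBA1A lies below the 1.5-fold line with 2 other genes, and the other 7 lie between -0.18 and 0.35.

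The measurement has 2 features that touch these values. The first is probe specificity. Affymetrix gives the suffix _x_at to probe sets that may bind other sequences and _s_at to those that match several transcripts. These classes made up 18 of the 21 tubulin probe sets (85.7%), against 27.7% of all probe sets with 1 gene. Both TUBA1A probe sets are of the _x_at class, and the gene has none outside these classes. The 6 _s_at probe sets were all higher (0.04 to 0.35), the 3 plain _at probe sets (TUBA4A, TUBB4B and TUBB6) all lower (-0.17 to -0.04), and the 12 _x_at probe sets were 5 higher and 7 lower. All 6 _s_at probe sets and the plain TUBA4A one lay in the brightest decile of all probe sets, with a median of 0.10. The plain TUBB4B and TUBB6 ones lay in deciles 8 and 5 from the dimmest, with medians of -0.01 and -0.04. The share of each class that was higher over all genes was not computed, so nothing is read from these class counts. The part of probe cross-binding in these differences was not tested.

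The second is a drift of the difference with intensity. Of the 24 tubulin probe sets, 19 lay in the brightest decile of all probe sets, whose median log2 difference was 0.10. All 18 spike-in probe sets, which report RNA added at hybridization, also had positive differences (0.01 to 0.16). Set against the median of their own decile, 8 of the 21 probe sets with 1 gene were above and 13 below. TUBA1A then stood at -0.86 and -0.71, TUBB2A at 0.25 and 0.23, and TUBA1C at 0.10 and 0.13. TUBA4A stood at -0.24 and -0.27, and TUBB3 at -0.27. Of 23 background control probe sets, 20 were lower in the knockdown array, with log2 differences down to -0.33 and a largest intensity difference, knockdown minus control, of -297. Both extremes came from the control with 25 G or C bases. The next was the control with 24, at -0.16 and -81.1, and the control with 17 stood at -0.06 and -7.2. The intensity difference was -300.4 on the brighter TUBA1A probe set and -189.8 on the other. The part of background in these differences was not tested, as the base composition of the probes is not in the files.

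**Figure D4:**
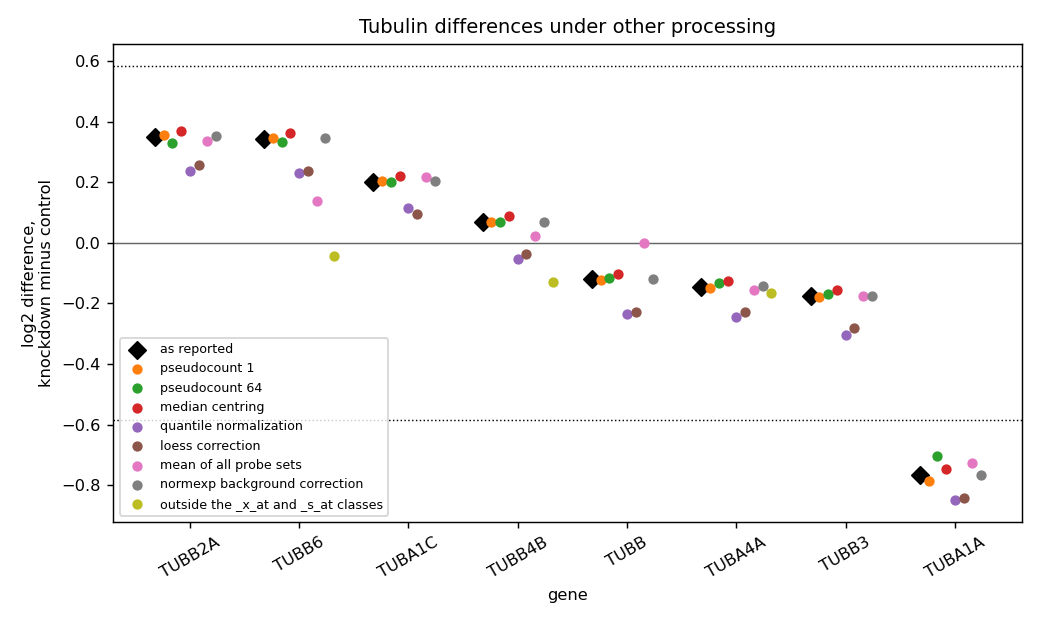
Log2 difference (knockdown minus control) of the 8 tubulin genes as reported (black diamonds) and under the other processing settings (coloured points); dotted lines mark 1.5-fold. TUBA1A lies between -0.85 and -0.70 under every setting in which it has a probe set, whereas TUBB, TUBB4B and TUBB6 have points on both sides of 0.

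Genes that act on tubulin were described through 7 lists holding 105 genes, of which 87 passed the filter and 0 were past 1.5-fold in either direction. The counts below stand beside 49.8% of all genes past the filter that were higher, with a median of -0.0009. Among the brighter genes past the 75th percentile, 59.7% were higher and the median was 0.04. The chaperonin and prefoldin list, which covers the subunits of TRiC and of the prefoldin complex that hands it unfolded tubulin and actin, had 14 of 14 members higher, with a median log2 difference of 0.16. The TRiC subunit genes CCT4 and CCT6A were higher by 0.35 and 0.31, and the prefoldin gene PFDN4 by 0.23. All 4 CCT4 probe sets were higher, from 0.09 to 0.35. The list's median moved to 0.05 after quantile normalization and 0.07 after loess, and the drift with intensity described above touches it as well. Even its dimmest member, PFDN1, read 451 in the knockdown array and 391 in the control array. The brightest decile of all probe sets had a median of 0.10, so nothing is read from the count of 14. Of the 7 tubulin cofactor genes 6 were higher, with a median of 0.10 that moved to 0.050 after quantile normalization and 0.024 after loess. TBCEL, a cofactor E-like destabiliser of tubulin, was higher by 0.20, with 1 of 4 probe sets past the filter. It was dim, at 155 in the knockdown array and 134 in the control array. TBCA, which holds beta-tubulin, was higher by 0.13. TBCD, which also handles beta-tubulin, differed by -0.12 and was lower on its 3 probe sets past the filter.

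The tubulin autoregulation list, made of TTC5, SCAPER and the CCR4-NOT subunits, had 9 of 11 members higher and a median of 0.04, which turned to -0.003 with the mean of all probe sets. The scaffold gene CNOT1 was higher by 0.12 and the deadenylase genes CNOT8 and CNOT7 by 0.11 each. CNOT1 was dim, at 165 in the knockdown array and 150 in the control array, with 1 of 4 probe sets past the filter. CNOT8 was dim as well, at 154 and 141, with 2 of 4. The tubulin modifying enzymes had 6 of 17 members higher and 11 lower, with a median of -0.03. AGBL4, a carboxypeptidase that trims glutamate side chains, differed by -0.21, TPGS2, a subunit of a polyglutamylase complex, by 0.21, and VASH1, which removes the final tyrosine of alpha-tubulin, by -0.14. The other TPGS2 probe set differed by -0.09. AGBL4 had 1 of 3 probe sets past the filter. VASH1 had 2 of 4 and was near the filter, at 121 in the knockdown array and 135 in the control array.

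The gamma-tubulin ring complex nucleates microtubules. Of the list for this complex, which also holds proteins reported with it, 7 of 9 members were higher, with a median of 0.03. That median turned to -0.031 after quantile normalization and -0.010 after loess. MZT1, a small subunit, was higher on its 3 probe sets (0.14 to 0.40). LGALS3BP, a secreted glycoprotein reported with the complex, was higher by 0.15, and the core subunit gene TUBGCP2 differed by -0.10. The other tubulins had 3 of 8 members higher and a median of -0.05, which turned to 0.062 without the _x_at and _s_at classes. TUBG1, the gamma-tubulin of most cells, was higher by 0.11, TUBE1, the epsilon-tubulin of centrioles, by 0.09, and TUBB4A, a beta-tubulin of brain, differed by -0.09 with 5 probe sets from -0.14 to 0.04. Of the microtubule stabilisers and destabilisers 12 of 21 were higher and 9 lower, with a median of 0.03 that turned to -0.027 after quantile normalization. MAP7D1, of a family that recruits kinesin to microtubules, was higher by 0.38, with 3 probe sets past the filter from 0.06 to 0.38. The kinesin gene KIF18A, which shortens chromosome-bound microtubules, was higher by 0.23 on its 1 probe set. The severing enzyme gene KATNAL1 differed by -0.29, with 1 of 2 probe sets past the filter. It was dim, at 135 in the knockdown array and 170 in the control array.

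**Figure D5:**
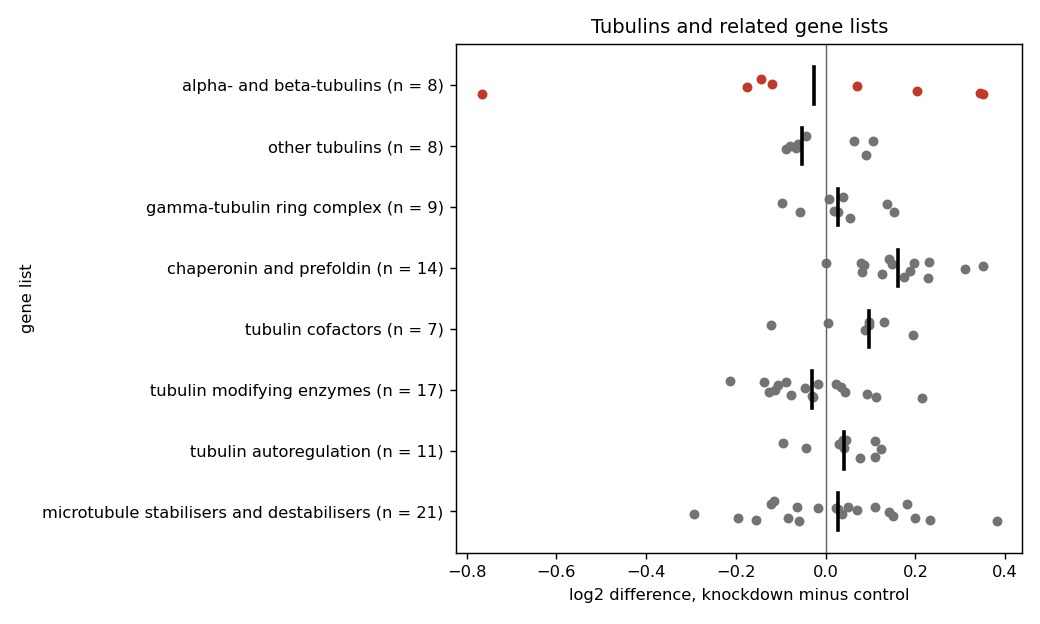
Log2 difference (knockdown minus control) of each gene past the filter in the tubulin family (red) and in 7 lists of genes that build, fold, modify or bind tubulin (grey), with the list median as a black bar. TUBA1A, at -0.77, lies farthest from 0 of all genes drawn, and the chaperonin and prefoldin genes have the highest median (0.16).

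The labelled cell type was checked against its markers. Of 8 colorectal epithelial markers 7 passed the filter, and the summed intensity of all 8 was 9052 in the knockdown array and 7734 in the control array. In log2 difference 6 of the 8 were higher and 2 lower, from VIL1 (-0.12, below the filter) and CDX1 (-0.06) to KRT8 (0.34). Of 20 markers of fibroblasts, immune cells, endothelial cells and neurons, 11 passed the filter, and all 11 were lower in the knockdown array, where 50.2% of all genes past the filter were lower. The 8 dimmer deciles of all probe sets had median differences between -0.04 and -0.01. Summed over all measured markers of a type, whether past the filter or not, intensities ran from 362 for immune cells to 957 for neurons in the knockdown array, and from 386 for immune cells to 1044 for neurons in the control array. The neuronal markers, listed because TUBB3 is also a marker of neurons, were 5 genes with log2 differences from -0.16 to -0.002. Background is part of all these intensities. The background controls are single probe sets and not sums. They reached 1128 in the knockdown array and 1425 in the control array with 25 G or C bases, and the one with 20 read 264 and 282. The base composition of the marker probes is not in the files, so an intensity in this range does not show that a marker is expressed. The part of these markers in the tubulin differences was not tested.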

How the data were processed

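Total RNA (100 ng) of 1 knockdown and 1 control culture of HCT116 was labelled with biotin and hybridised to Affymetrix arrays, per the labels' protocols. The authors deposited linear intensities, 1 per probe set. MAS5 and RMA are named, per the submitters' processing notes, without role or order. How the arrays were normalized to each other is not given in the sources used, so centring and scaling between them are unknown. The median intensity was 107 in the knockdown array and 109 in the control array.

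The platform annotation named 1 gene for 44988 of 49293 probe sets without controls, several for 1832 and no gene for 2473. Current RefSeq symbols were taken by Entrez ID (44961 matched). A log2 scale with a pseudocount of 16 was applied to the deposited intensities, and fold changes understate those of dim genes on it. Background left in the values does the same. Genes took their brightest probe set and were kept at or above the median probe set. No test was possible with 1 array per group. Genes are counted past a fixed 1.5-fold.

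The members, the lists and the naming rule were chosen with earlier results of these data known. Named were all members, SUN2, in each list the 3 members with the largest difference and any past 1.5-fold, and the 3 genes closest to the member farthest from 0. MAPRE1 was named after its value was seen. Alternatives were pseudocounts of 1 and 64, median centring, quantile normalization, loess, a normexp correction with an offset of 50 in place of the pseudocount (limma 3.58.1), the mean of all probe sets, use of neither _x_at nor _s_at probe sets, and filters at the 25th and 75th percentile or none. The gene step was tested on simulated data. Python 3.11.15 was used.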

Additional observations from a re-analysis of the deposited data

How the results depend on the processing

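No paired analysis was possible because there is only 1 knockdown and 1 control array, so neither can be left out. A value was counted as moved when it differed from the reported one by more than 0.09 on the log2 scale, the within-gene SD between probe sets. Of 170 values recomputed for 20 results under 11 alternatives, 146 moved by less, or for counts by at most 1.5 times. This count overstates stability. All 8 tubulin genes passed every filter, so the other filters could not change the family values. A median could also change sign without counting as moved, as that of the gamma-tubulin ring complex list did (0.03 to -0.031 after quantile normalization). The TUBA1A difference stayed between -0.85 and -0.70 under the 7 alternatives that could be computed, and could not be computed outside the _x_at and _s_at classes, where it has no probe set. There the family came down to 2 genes past the filter, 0 higher and 2 lower, with 0 at least 1.5-fold lower, and the median went to -0.15. The family median went to -0.14 after quantile normalization and -0.13 after loess, and turned to 0.011 with the mean of all probe sets. The median of the other tubulins went to 0.062 outside those classes, and that of the chaperonin and prefoldin list to 0.051 after quantile normalization. Over all genes, 3 were at least 1.5-fold lower as reported, against 10 after quantile normalization and 8 after loess. At least 1.5-fold higher were 41, against 22 with the mean of all probe sets. The cause of these shifts was not tested.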
